A study of Mus musculus with 5 samples.

Results

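The 33 genes described here encode the steps of glycolysis, glucose uptake, the fate of pyruvate and lactate, and the pentose phosphate pathway. They were chosen by name. Probes were assigned to them through the RefSeq transcript that each probe was designed on, and each gene was represented by its brightest probe. All 33 genes had a probe among 20009 named genes, and 32 of them were among the 11991 genes tested. The exception was Hk3, a hexokinase of myeloid cells, whose probe was well above background on 0 of 5 arrays and so was not tested.

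The RNA came from natural killer T (NKT) cells, which are T cells that recognise lipids on CD1d. Each sample began with 10 thymi as a pool. T cells were enriched magnetically, and those staining for both CD3e and CD1d tetramer were sorted. Wild-type C57BL/6 mice gave 3 samples, and mice of the C57BL/6 background with the genotype IL15-/- (IL15ko) gave 2. The IL15ko animals lack interleukin-15 in every cell and not in NKT cells alone, and the labels give no age. Each sample was hybridised to 1 one-colour Agilent array, and all 5 arrays lay on 1 slide with 1 scan. The labels number the samples of a group without saying that they came from different animals. All p-values are therefore relative to the scatter among these 5 samples, some or all of which may be technical.

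Glycolysis splits glucose into pyruvate through a chain of cytosolic enzymes. Hexokinase, phosphofructokinase and pyruvate kinase catalyse its irreversible steps, and lactate dehydrogenase returns pyruvate to lactate. The pentose phosphate pathway branches off after hexokinase: its oxidative arm makes NADPH, and its non-oxidative arm makes ribose phosphate for nucleotides. T cells use both pathways at a higher rate when they grow and divide, and resting T cells rely more on mitochondria.

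In IL15ko NKT cells, 5 of the 17 genes tested from hexokinase to pyruvate kinase were called higher: Hk2, Pfkm, Gapdh, Pgk1 and Pkm. The other 12 did not pass. Ldhb, of lactate dehydrogenase, was called higher as well. Of the 32 members tested, 6 were called higher at a limma adjusted p under 0.05 and 0 were called lower, against 3.75% of all genes called higher and 3.58% called lower. At an unadjusted limma p under 0.05, 15 members were higher and 2 lower, against 1780 and 1518 of the 11991 genes tested. The median log2 difference (IL15ko minus wild-type) was 0.34 over the 32 members and 0.01 over the 11991 genes tested. In bulk RNA of sorted cells, a change of level within cells cannot be told apart from a change in the mix of NKT subsets.

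**Figure D1:**
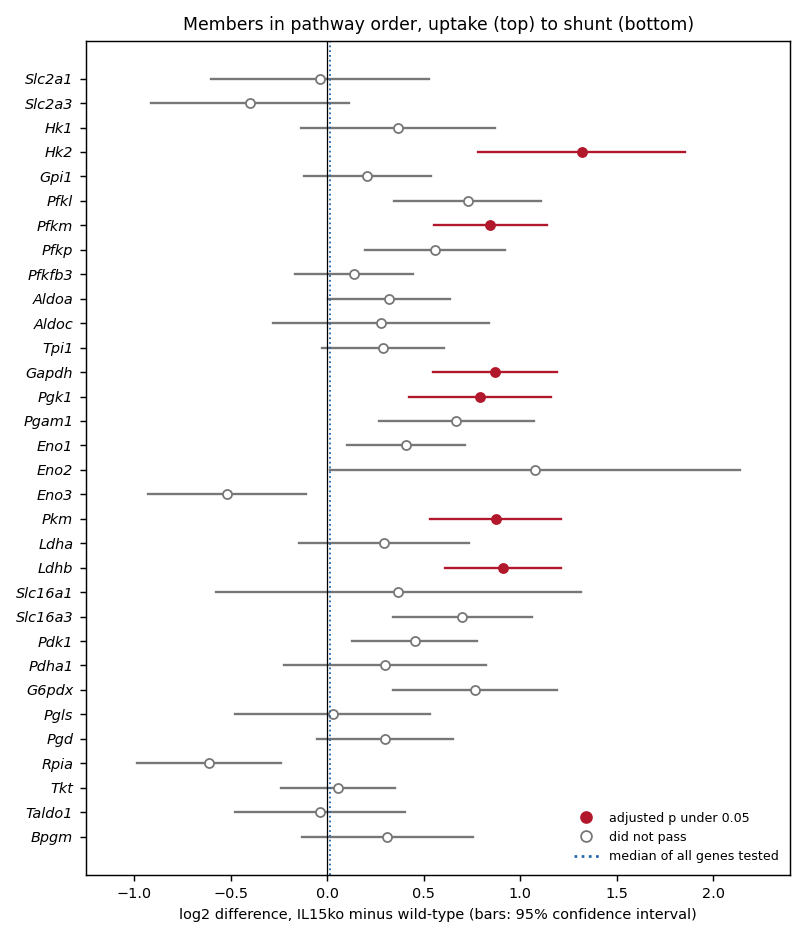
Log2 difference (IL15ko minus wild-type, x axis) of the 32 members tested, in pathway order from top to bottom. Points are limma estimates, bars 95% confidence intervals, filled points the 6 members called, and the dotted line the median of all genes tested. Glycolytic members lie mostly to the right of 0, Hk2 farthest at 1.32, while Slc2a3, Eno3 and Rpia lie to the left.

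The direction of the members' median was shared by both IL15ko arrays. Values of the 2 groups did not overlap in 24 of the 32 members, 21 of them higher in IL15ko and 3 lower, where the same held for 25.1% (higher) and 22.1% (lower) of all genes tested. Taken as deviations from each gene's wild-type mean, the members had a median of -0.06, -0.01 and 0.10 on wild-type arrays 1, 2 and 3, and of 0.40 and 0.36 on IL15ko arrays 1 and 2. The same median over all genes lay between -0.01 and 0.03 on every array. By the members' median, the 2 IL15ko arrays thus stood above all 3 wild-type arrays. The same held for the 17 members tested from hexokinase to pyruvate kinase (0.55 and 0.58, against -0.05 to 0.06 in wild-type). It did not hold for the 6 pentose phosphate members. Their median was -0.03, -0.05 and 0.11 in wild-type, 0.23 on IL15ko 1 and -0.10 on IL15ko 2.

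The calls depended on which arrays were used. Leaving out wild-type 1, wild-type 2 or IL15ko 2 left 0 members called, leaving out IL15ko 1 left only Hk2, and leaving out wild-type 3 left 7 called, which were Gapdh, Ldhb, Pfkm, Pgk1 and Pkm with G6pdx and Pgam1 added. The sizes moved less than the calls: over these 5 fits the median of the members lay between 0.28 and 0.41. Over the same fits, the log2 differences of the called members other than Hk2 stayed between 0.73 and 0.95.

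Signal differed between arrays. Between 33.9% (IL15ko 2) and 49.6% (wild-type 3) of probes were well above background, and the scale of wild-type 3 was 4.45 times that of IL15ko 2, the dimmest array. Wild-type 1 and 2 lay closer to each other than other pairs, and the robust SD between them over the members was 0.0897 on the log2 scale, against 0.173 for the IL15ko pair and 0.185 and 0.178 for wild-type 3 with wild-type 1 and 2. Il15 had 1 probe, well above background on 0 arrays, which checks nothing about the labels. Of 14 T-cell and NKT identity genes, 11 had a named probe, none of these was below background on every array, 3 were called higher (Slamf6, Zbtb16 and Cd5) and 0 lower by limma. At an unadjusted p under 0.05, 1 was lower: Il2rb, a chain of the interleukin-15 receptor, at -1.56 ± 0.33 on the log2 scale (adjusted p = 0.0542). Cd3g and Cd3d were also below wild-type on both IL15ko arrays, at -0.77 ± 0.36 and -0.26 ± 0.14 (adjusted p = 0.235 and 0.294). The summed level of the 11 genes ran from 127.6 to 132.9 times the array's 75th percentile in wild-type and from 128.8 to 132.6 in IL15ko.

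Levels below are log2 signals relative to the 75th percentile of the bright probes of the same array, so that 0 is a bright gene and -6 a dim one. They compare arrays for 1 probe, not probes with each other.

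Glucose enters T cells through the facilitative transporters encoded by Slc2a1 (GLUT1) and Slc2a3 (GLUT3). Slc2a3 had levels of -0.57, -0.46 and -0.11 on the wild-type arrays and of -0.95 and -0.61 on the IL15ko arrays. The IL15ko arrays were the lowest of the 5, but the gap to wild-type 1 was small, and the log2 difference of -0.40 ± 0.20 (SE) did not pass (limma adjusted p = 0.267). Slc2a1 had levels of -1.65, -1.71 and -1.44 in wild-type and of -1.95 and -1.33 in IL15ko, so that the groups overlapped. Its log2 difference of -0.04 (95% confidence interval -0.60 to 0.53) changed sign when single arrays were left out. Neither transporter gene was called, and neither difference was positive.

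Hexokinase traps glucose in the cell by phosphorylating it. Hk2, the inducible isozyme, had levels of -5.92, -5.88 and -5.91 in wild-type and of -4.90 and -4.27 in IL15ko. Both IL15ko arrays were above all wild-type arrays, which lay within 0.04 of each other, and IL15ko 2 was the higher. Hk2 was 2.50-fold higher (95% confidence interval 1.72 to 3.62, limma adjusted p = 0.0297). It was the largest difference among the called members, at the lowest signal: its probe was well above background on all 5 arrays but dim. Its log2 difference was 1.32 in the main setting. It was 0.84 with normexp background correction, 0.51 with normexp and quantile normalization together, and 1.00 and 1.63 without IL15ko 2 and IL15ko 1. Hk1, the constitutive isozyme, had levels of 1.25, 1.20 and 1.57 in wild-type and of 1.50 and 1.91 in IL15ko, and the log2 difference was 0.37 ± 0.20 (adjusted p = 0.295). A dimmer Hk1 probe gave -0.09.

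Gpi1, the isomerase that makes fructose 6-phosphate, was among the least changed members of the upper pathway. Its log2 difference was 0.21 ± 0.13 (adjusted p = 0.352), and its 3 probes lay between 0.13 and 0.24.

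Phosphofructokinase commits sugar to glycolysis, and its 3 subunit genes were all above wild-type on both IL15ko arrays, as were 25.1% of all genes tested. Pfkm, the muscle-type subunit, had levels of -2.35, -2.37 and -2.37 in wild-type and of -1.52 and -1.51 in IL15ko. This was among the most closely replicated values of the set, and its probe is printed in 10 spots. Pfkm was 1.80-fold higher (1.46 to 2.20, limma adjusted p = 0.0219). The liver-type subunit gene Pfkl had levels of -1.59, -1.66 and -1.44 against -0.97 and -0.71. Its log2 difference of 0.73 ± 0.15 missed the threshold (adjusted p = 0.0526). The platelet-type Pfkp differed by 0.56 ± 0.14 on the log2 scale (adjusted p = 0.082), which did not pass. A dimmer second probe gave 1.26. Pfkfb3, whose product makes an activator of phosphofructokinase, had a log2 difference of 0.14 ± 0.12 (adjusted p = 0.486). A second, dim Pfkfb3 probe on another transcript had a difference of -1.16, so the direction for this gene is not settled.

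The enzymes that split and interconvert the triose sugars had smaller differences. Aldoa, the main aldolase of most tissues, had levels of 4.18, 4.26 and 4.25 in wild-type and of 4.62 and 4.48 in IL15ko. The groups were apart, but the log2 difference was only 0.32 ± 0.12 (adjusted p = 0.178). Tpi1, triose phosphate isomerase, had a log2 difference of 0.29 ± 0.12 (adjusted p = 0.207). Aldoc, the brain-type aldolase, had one of 0.28 ± 0.22 (adjusted p = 0.454) with overlapping groups.

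The payoff phase, from Gapdh to pyruvate kinase, held 3 of the called members. Of its 7 members tested, 6 were above all wild-type arrays on both IL15ko arrays, where the same held for 25.1% of all genes tested. Gapdh, which oxidises glyceraldehyde 3-phosphate, had levels of 4.76, 4.85 and 4.94 in wild-type and of 5.72 and 5.72 in IL15ko. The IL15ko arrays agreed within 0.01, and Gapdh was 1.83-fold higher (1.46 to 2.28, limma adjusted p = 0.0242). All 7 Gapdh probes had a positive difference, but they ran from 0.09 to 1.16. Gapdh has many processed pseudogenes, and a probe may bind their transcripts too, so the size is uncertain.

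Pgk1, phosphoglycerate kinase, makes the first ATP of the pathway. Its levels were 1.97, 2.06 and 2.26 in wild-type and 2.93 and 2.85 in IL15ko. The gap between groups was larger than the spread within either, and Pgk1 was 1.73-fold higher (1.34 to 2.23, limma adjusted p = 0.0397). Its neighbour Pgam1, phosphoglycerate mutase, had levels of 1.35, 1.40 and 1.71 against 2.15 and 2.15, and did not pass (log2 difference 0.67 ± 0.16, adjusted p = 0.0704).

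Pkm, pyruvate kinase of muscle and proliferating cells, had levels of 2.19, 2.32 and 2.41 in wild-type and of 3.14 and 3.22 in IL15ko. It was 1.83-fold higher (1.45 to 2.31, limma adjusted p = 0.0273), with both IL15ko arrays well above the wild-type range. The single Pkm probe does not tell the M1 and M2 splice forms apart.

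The enolases differed in direction, though none was called. Eno1, the ubiquitous enolase, had levels of 3.20, 3.24 and 3.31 in wild-type and of 3.63 and 3.68 in IL15ko. The groups were apart, and the log2 difference was 0.41 ± 0.12 (adjusted p = 0.109). The gene Eno1b is a near-identical copy whose RNA the probe may also bind. Eno3, the muscle enolase, was instead lower on both IL15ko arrays: its levels were -0.59, -0.59 and -0.59 in wild-type and -0.91 and -1.31 in IL15ko, with a log2 difference of -0.52 ± 0.16 (adjusted p = 0.119). Eno2, the neuronal enolase, was dim and detected on 2 of the wild-type and 1 of the IL15ko arrays, and its log2 difference of 1.08 ± 0.42 (adjusted p = 0.179) is poorly determined.

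**Figure D2:**
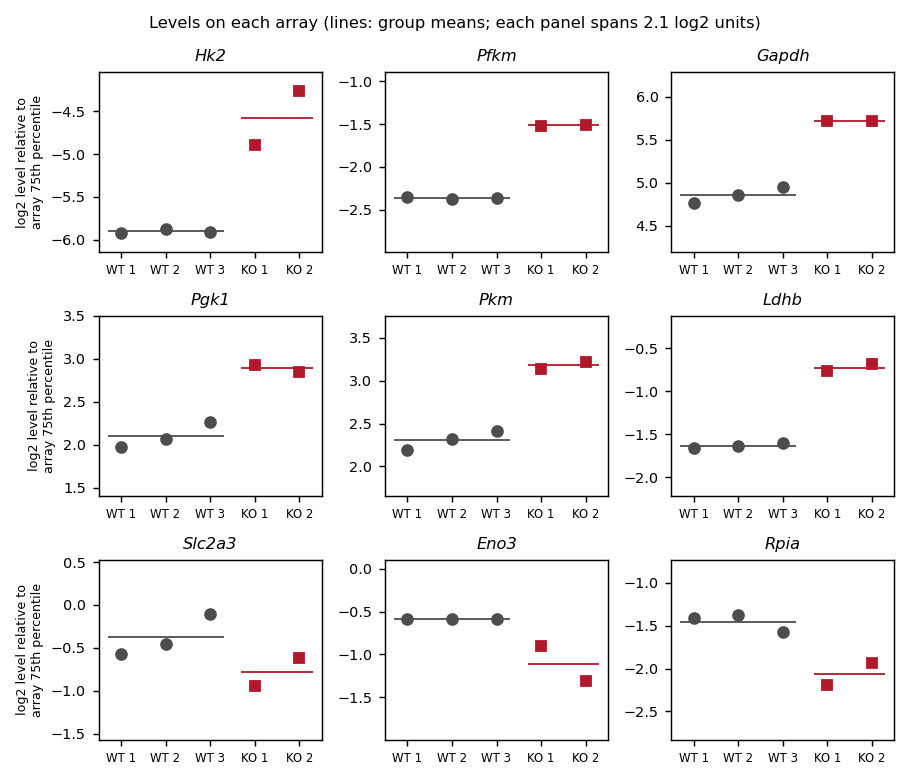
Log2 level relative to the array's 75th percentile (y axis) on wild-type (WT, circles) and IL15ko (KO, squares) arrays, with lines at group means; all panels span the same range of 2.1 log2 units. The upper 6 panels show the called members, where both IL15ko arrays lie above the wild-type arrays, and the lower 3 show Slc2a3, Eno3 and Rpia, where both lie below.

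At the end of the pathway, the 2 lactate dehydrogenase genes differed in how far their groups were apart. Ldhb, the heart-type subunit, had levels of -1.66, -1.64 and -1.61 in wild-type and of -0.76 and -0.68 in IL15ko. Ldhb was 1.88-fold higher (1.53 to 2.32) and had the smallest adjusted p of the members (limma adjusted p = 0.02). Ldha, the muscle-type subunit, had levels of 4.45, 4.48 and 4.66 against 5.02 and 4.62. Here IL15ko 2 fell within the wild-type range, the log2 difference was 0.29 ± 0.17 (adjusted p = 0.33), and its 3 probes ran from -0.40 to 0.41. Slc16a3 (MCT4), the lactate exporter of glycolytic cells, had levels of -1.80, -1.73 and -1.96 in wild-type and of -1.05 and -1.21 in IL15ko. Its groups were well apart, and its 2 probes had differences of 0.70 and 0.81, but it missed the threshold (0.70 ± 0.14, adjusted p = 0.0508). Slc16a1 (MCT1) was dim and variable, with a log2 difference of 0.37 ± 0.37 (adjusted p = 0.554).

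Pyruvate enters mitochondria through pyruvate dehydrogenase, whose E1 alpha subunit is encoded by Pdha1 and which Pdk1 phosphorylates and inhibits. Pdk1 had levels of -2.70, -2.52 and -2.58 in wild-type and of -2.12 and -2.17 in IL15ko, a log2 difference of 0.45 ± 0.13 (adjusted p = 0.0989). Pdha1 had one of 0.30 ± 0.21 (adjusted p = 0.397), with IL15ko 2 inside the wild-type range.

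In the pentose phosphate pathway, 0 of 6 members were called by limma, and at an unadjusted p under 0.05 there was 1 higher (G6pdx) and 1 lower (Rpia). Their median log2 difference was 0.04, against 0.56 for the 17 members tested from hexokinase to pyruvate kinase. Whether these 2 groups of genes differ was not tested. G6pdx, glucose 6-phosphate dehydrogenase, the entry enzyme of the oxidative arm, had levels of -0.47, -0.44 and -0.09 in wild-type and of 0.38 and 0.48 in IL15ko. Both IL15ko arrays were above wild-type, with a log2 difference of 0.77 ± 0.17 that missed the threshold (adjusted p = 0.0589). The next enzymes of that arm, Pgls and Pgd, had log2 differences of 0.03 ± 0.20 (adjusted p = 0.94) and 0.30 ± 0.14 (adjusted p = 0.237).

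In the non-oxidative arm, Rpia, the ribose 5-phosphate isomerase, had levels of -1.41, -1.38 and -1.57 in wild-type and of -2.19 and -1.94 in IL15ko. Both IL15ko arrays were below the wild-type range, and the log2 difference was -0.61 ± 0.15 (adjusted p = 0.0723), the most negative of the members. Tkt, transketolase, varied little, with levels of 2.43, 2.41 and 2.44 against 2.51 and 2.46 and a log2 difference of 0.06 (95% confidence interval -0.24 to 0.35). Taldo1, transaldolase, had a log2 difference of -0.04 (95% confidence interval -0.48 to 0.40). Bpgm, which diverts an intermediate of glycolysis to 2,3-bisphosphoglycerate in red cells, had one of 0.31 ± 0.17 (adjusted p = 0.311).

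Ratios of isozymes within an array do not depend on how arrays are scaled. For 8 isozyme pairs, chosen after the values were known, the log2 ratio was compared between groups by an exact two-sided permutation test, whose smallest possible p with 3 arrays against 2 is 0.1. The log2 ratio of Hk2 to Hk1 was higher on both IL15ko arrays, by 0.95 (SD 0.21 in wild-type and 0.16 in IL15ko). The ratio of Ldhb to Ldha was higher by 0.62 (SD 0.09 and 0.34), that of Eno3 to Eno1 had a change of -0.93 (SD 0.06 and 0.32) and that of Slc2a3 to Slc2a1 one of -0.36 (SD 0.13 and 0.20). In these 4 pairs the groups did not overlap, and each had an exact p of 0.1 and an adjusted p of 0.2 over the 8 pairs, so none could pass. The other 4 pairs, Pfkm and Pfkp against Pfkl, Aldoc against Aldoa and Slc16a1 against Slc16a3, overlapped, with exact p of 0.5 to 0.7.

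Several members had more than 1 probe. Of the 8 such genes, 5 had the same direction in every probe, and Hk1, Pfkfb3 and Ldha did not. The called member with several probes was Gapdh, and the other 5 called members rest on 1 probe each.

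**Figure D3:**
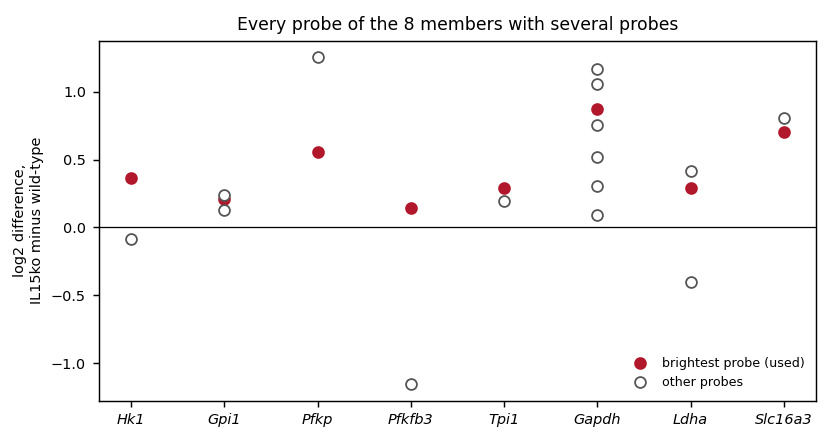
Log2 difference (IL15ko minus wild-type, y axis) of every probe of the 8 members with several probes; filled points mark the brightest probe, which was used. All 7 Gapdh probes lie above 0, from 0.09 to 1.16, while the probes of Hk1, Pfkfb3 and Ldha lie on both sides of 0.

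Promoters were examined because several members moved together and glycolytic genes are textbook targets of hypoxia-inducible factor, which binds a core of ACGTG, and of Myc, which binds the E-box CACGTG. RefSeq promoter sequences (GRCm38.p6) matched 32 of the 33 members, with 46 start sites. In the 250 bases before the start, ACGTG was present on either strand in 15 of 46 member promoters (32.6%) and in 5 of 10 promoters of the called members, against 21.4% of promoters of all genes tested and 16.6% of all 32851 promoters. By gene, 12 of 32 members (37.5%) and 4 of the 6 called members had such a promoter. The share by gene was 24.8% among genes tested and 18.5% among all genes with a promoter. CACGTG, which contains ACGTG, was present in 8.7% of member promoters against 8.19% in genes tested and 6.02% of all promoters. The STAT motif TTCNNNGAA was present in 4.35% of member promoters, in 6.07% of those of genes tested and in 7.02% of all. Among the 10 promoters of the 6 called members, CACGTG and TTCNNNGAA were present in 1 each. A match is a run of letters, not a bound site. The sequences below set the called members Hk2 and Pgk1, which each hold 2 ACGTG matches, beside the lactate dehydrogenase genes, where the gene with the most matches (Ldha) was not called and the gene with the smallest adjusted p (Ldhb) has none. They run from 250 bases before the start to the base before it, 5′ to 3′ on the gene's strand, and capitals mark ACGTG on either strand (CACGT where it lies on the other strand). They lie at chr6:82774455-82774704 on the minus strand (Hk2), chrX:106186850-106187099 on the plus strand (Pgk1), chr7:46845554-46845803 on the plus strand (Ldha, the first of its 2 starts) and chr6:142507958-142508207 on the minus strand (Ldhb).
Hk2: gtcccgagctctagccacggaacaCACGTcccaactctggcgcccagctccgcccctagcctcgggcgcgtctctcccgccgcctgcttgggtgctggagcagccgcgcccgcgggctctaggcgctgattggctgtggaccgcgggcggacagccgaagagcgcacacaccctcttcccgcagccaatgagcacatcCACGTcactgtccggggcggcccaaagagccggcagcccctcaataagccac
Pgk1: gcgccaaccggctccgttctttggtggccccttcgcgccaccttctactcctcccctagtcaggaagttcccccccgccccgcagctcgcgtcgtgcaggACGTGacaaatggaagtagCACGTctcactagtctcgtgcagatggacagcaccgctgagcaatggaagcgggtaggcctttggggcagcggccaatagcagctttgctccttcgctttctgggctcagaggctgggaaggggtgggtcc
Ldha: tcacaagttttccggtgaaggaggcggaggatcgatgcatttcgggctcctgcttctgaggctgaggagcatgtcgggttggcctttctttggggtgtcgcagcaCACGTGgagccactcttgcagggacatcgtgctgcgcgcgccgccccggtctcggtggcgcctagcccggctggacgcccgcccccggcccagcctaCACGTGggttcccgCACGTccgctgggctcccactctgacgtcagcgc
Ldhb: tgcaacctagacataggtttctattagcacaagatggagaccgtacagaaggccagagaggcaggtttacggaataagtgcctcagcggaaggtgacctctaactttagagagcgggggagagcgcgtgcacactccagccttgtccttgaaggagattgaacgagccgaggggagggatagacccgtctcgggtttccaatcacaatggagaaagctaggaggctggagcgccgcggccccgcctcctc
The matches in Hk2 begin 226 and 52 bases before the start, and those in Pgk1 150 and 131 bases before it. Ldha has 5 matches in 3 marked stretches, because each of its 2 CACGTG reads ACGTG on both strands and counts as 2 matches. The called members include promoters with and without the motif in this window.

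Other genes of the pathway had medians near 0. Of 27 other isozyme and sugar-entry genes, 17 were tested, 1 was called higher and 1 lower, and their median log2 difference was -0.01. Ldhd, a mitochondrial D-lactate dehydrogenase, had levels of -3.44, -3.34 and -3.21 in wild-type and of -2.34 and -2.49 in IL15ko and was 1.89-fold higher (adjusted p = 0.0266). Slc2a8, an intracellular glucose transporter gene, had levels of -0.06, -0.14 and -0.01 against -0.95 and -1.41 and was 2.15-fold lower (adjusted p = 0.0295). Pfkfb4 did not pass, at -0.59 ± 0.15 on the log2 scale (adjusted p = 0.0825), nor did Pgam2, which was dim and above background on 3 arrays, at 2.95 ± 0.70 (adjusted p = 0.0698).

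Around pyruvate dehydrogenase, 11 of 13 further genes were tested, 1 was called higher and 0 lower, with a median of -0.04 and 1 gene lower at an unadjusted p under 0.05 (Dlat, the E2 subunit, -0.56 ± 0.14, adjusted p = 0.0822). The called gene was Pdk3, another inhibitory kinase, with levels of -2.68, -2.81 and -2.54 against -1.95 and -1.85 (1.71-fold higher, adjusted p = 0.0394). Of 10 other pentose phosphate genes, 9 were tested, with 1 called higher, 0 lower, 3 lower at an unadjusted p under 0.05 (Tktl1, H6pd and Prps1) and a median of 0.03. The called gene was Dera, deoxyribose phosphate aldolase, which was 1.83-fold higher (adjusted p = 0.0286).

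Of 23 regulators of glycolytic transcription, 21 were tested, 2 were called higher and 1 lower, and the median was -0.03. By an unadjusted limma p under 0.05, 5 were higher and 5 lower. Txnip encodes a protein that restrains glucose uptake, and its levels were -0.01, 0.05 and -0.11 in wild-type and -2.50 and -1.75 in IL15ko. It was 4.29-fold lower (2.79 to 6.61, limma adjusted p = 0.0173), its 2 probes had differences of -2.41 and -2.10. Irf4, a transcription factor of activated lymphocytes, was 3.25-fold higher (2.62 to 4.03, adjusted p = 0.00784). Egln3, a prolyl hydroxylase that marks hypoxia-inducible factor for degradation and is itself induced by it, had levels of -4.95, -4.62 and -4.96 against -3.18 and -3.91 and was 2.46-fold higher (adjusted p = 0.0488). Its relatives Egln1 and Egln2, and Hif1an, went the other way and did not pass. Their log2 differences were -1.78 ± 0.69, -0.42 ± 0.15 and -0.38 ± 0.13 (limma adjusted p = 0.179, 0.143 and 0.14). The difference of Hif1a was 0.73 ± 0.17 on the log2 scale (adjusted p = 0.0686), that of Rptor, the mTORC1 subunit raptor, -0.97 ± 0.21 (adjusted p = 0.0592), and that of Myc 0.05 ± 0.15 (adjusted p = 0.857). Over the alternatives, which numbered 18 for every gene here, Irf4 was called in 15, Txnip in 13, Ldhd and Slc2a8 in 9 each, Egln3 in 8, Dera in 7 and Pdk3 in 6.

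**Figure D4:**
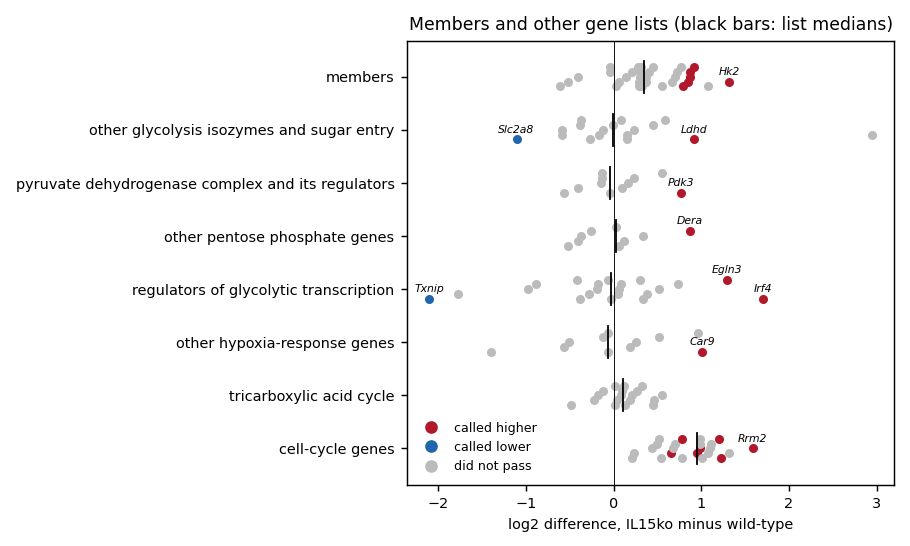
Log2 difference (IL15ko minus wild-type, x axis) of each tested gene of the members and of 7 other lists (rows); coloured points passed an adjusted p under 0.05 and black bars are list medians. The members' median lies at 0.34 and that of the cell-cycle genes at 0.96, while the other 6 medians lie between -0.06 and 0.11.

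Markers of other states and cells moved beside these genes. Of 25 cell-cycle genes, 23 were tested, 7 were called higher and 0 lower, against 3.75% and 3.58% of all genes tested. Also at an unadjusted p under 0.05, 0 were lower, and the median of these cell-cycle genes was 0.96. Their summed level ran from 21.4 to 24.4 times the array's 75th percentile in wild-type and from 31.8 to 37.7 in IL15ko. Rrm2, of ribonucleotide reductase, had levels of -0.32, -0.32 and -0.97 against 1.09 and 1.02 (3.01-fold higher, adjusted p = 0.0268), and Mcm5, Cdc6 and Mcm2, of replication licensing, had log2 differences of 0.96, 1.23 and 0.78 (adjusted p = 0.0185, 0.0254 and 0.0356). Double-positive thymocytes are the precursors of T and NKT cells. Their 11 markers summed to 2.49 to 2.90 in wild-type and 5.14 to 5.51 in IL15ko, mostly from Cd4 and Ccr9. Of the 5 tested, 2 were called higher (Ccr9 and Themis), and Cd4 did not pass (0.87 ± 0.18, adjusted p = 0.053). Dntt overlapped between groups (0.08 ± 0.78, adjusted p = 0.96). Cd1d1 was below wild-type on both IL15ko arrays (-0.16 ± 0.12, adjusted p = 0.414). The defining Rag1, Rag2, Ptcra, Cd8a and Cd8b1 were not above background on any array. NK-cell markers summed to 14.6 to 15.9 against 2.78 to 3.65, mostly from Klra8. Of 4 tested genes, 3 were called lower, the receptor genes Klra8, Klre1 and Klra4, and Irf8 did not pass (-0.59 ± 0.14, adjusted p = 0.0699). Eomes and Fcgr3 were above background on 1 array each and Ncr1 on none. Whether NK cells or the NKT cells themselves gave these signals was not tested. The part of all these markers in the results for the glycolytic genes was not tested.

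Markers of erythroid, B and stromal cells had low sums. Among erythroid markers, 4 of 8 with a probe (Alas2, Hbb-b2, Klf1 and Slc4a1) were above background on no array, and the summed level was 0.07 to 0.13 in wild-type and 0.10 to 0.13 in IL15ko. For B cells the sums were 0.05 to 0.12 and 0.09 to 0.12, with Cd79a, Ebf1, Ms4a1 and Pax5 above background on no array. The B-cell marker tested, Cd79b, was above background on all 5 arrays and higher on both IL15ko arrays, at 0.92 ± 0.24 on the log2 scale (adjusted p = 0.0882). Thymic epithelial and stromal markers summed to 0.05 to 0.12 and 0.05 to 0.11, with Foxn1, Krt8, Col3a1 and Pdgfra above background on no array. Myeloid markers summed to 4.32 to 6.27 in wild-type and to 4.76 and 10.9 in IL15ko, most of it from Itgam, an integrin gene also used by NK and T cells, while Lyz1, Lyz2, Adgre1 and Cebpa were above background on no array. The list's median log2 difference was -0.67 over 6 tested genes, of which 4 had a negative and 2 a positive difference. S100a9 was called lower, by 10.8-fold (adjusted p = 0.00382), but was above background on only 3 of 5 arrays. Its levels were -4.06, -3.88 and -4.05 in wild-type and -7.58 and -7.28 in IL15ko, so the size is limited by signal over background. S100a8 was dim with overlapping groups (-1.03 ± 0.87, adjusted p = 0.48). Csf1r did not pass, at -2.29 ± 0.46 (adjusted p = 0.0509).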

How the data were processed

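Per the file headers, the authors' deposited scanner output (Agilent Feature Extraction 10.7.1.1) gives a linear intensity per spot, background-subtracted and spatially detrended within each array. The submitters' processing notes also name limma. Control spots and 599 spot values marked as outliers were left out, spots of a probe were averaged, and log2 signals were centred on the 75th percentile of the 18519 probes detected well above background on all 5. No probe was saturated. Accessions were matched to RefSeq symbols of GRCm38.p6, which named 26425 of 55681 probes. Of 20009 genes, represented by their brightest probe with values on all arrays, 11991 whose probe exceeded background on 2 or more arrays were tested with lmFit and eBayes of limma 3.58.1 (R 4.3.3), without covariates, at a Benjamini-Hochberg adjusted p under 0.05 over all genes. The fit had 3 residual degrees of freedom, and the number of arrays limits the precision. Errors of log2 differences are moderated standard errors, and intervals are at 95%. The fit was tested on simulated data.

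The members, lists, motifs and tests were chosen with earlier results of these data known. All members are named, called or pivotal ones with every array's value. Of other lists, up to 4 genes by smallest p are named, with any gene needed to describe a small count. Alternatives changed the scaling, background correction, filter, choice of probe, variance prior, replicate block and arrays used. The planned normexp used the spot median, since the files give no spot mean. The authors' deposited value table, also of intensities on a linear scale with no scaling between arrays (column medians 27.2, 24.6, 29.0, 26.4 and 16.2), equalled spot median minus background median plus an offset that differed by array (bright spots); what set the offset is unknown.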

Additional observations from a re-analysis of the deposited data

How the results depend on the processing

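The median log2 difference of the members stayed between 0.28 and 0.41 over 18 alternatives, while the number of calls depended strongly on the setting. The 6 members called higher became 12 with normexp (offset 50) and quantile normalization and with a trended robust prior, 10 with only probes above background on all 5 arrays, 1 with all probes tested, and 0 with normexp and the 75th percentile, without a filter on dim probes, and with wild-type 1 and 2 averaged. Rpia was the 1 member called lower with normexp and quantile normalization, with probes above background on all 5 arrays and with the trended robust prior. Leaving out single arrays gave 0 to 7 members higher and 0 lower, and 1 to 373 genes higher and 8 to 410 lower over all genes. The 450 genes called higher became 823 (normexp and quantile), 0 (normexp and percentile), 0 (no filter), 710 (above background on all 5), 179 (all probes), 817 (trended robust) and 33 (wild-type 1 and 2 averaged). The 429 called lower became 1 (normexp and percentile), 3 (no filter), 212 (all probes), 692 (trended robust) and 63 (averaged). Normexp with the 75th percentile also moved the median of all genes to 0.22, against which the members' median of 0.37 was 0.16 higher. Without a filter on dim probes the median of all genes was 0.24 and the members' 0.32, a gap of 0.078 against 0.33 in the main setting. With the replicate number of the labels as a replicate block, which leaves 1 residual degree of freedom, 0 members, 138 genes higher and 241 lower were called. Same-numbered arrays deviated together with r of -0.13 and 0.21 across genes, so the numbers were not taken to pair the samples. Slide could not be a block, since all arrays lay on 1 slide.

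Of the gene values, 481 kept direction and side of the threshold, 57 lost the call, 23 gained it and 14 reversed; the cause was not tested. The reversals concerned members with differences near 0 (Taldo1, Slc2a1 and Pgls), a member with disagreeing probes (Pfkfb3) and the dim and variable Slc16a1. Taldo1 turned to 0.029 with quantile normalization and 0.012 under the replicate block, and leaving out single arrays gave -0.24 (without IL15ko 1) to 0.17 (IL15ko 2). Slc2a1 turned to 0.022 with normexp and the percentile and 0.042 under the block, and gave -0.34 (without IL15ko 2) to 0.27 (IL15ko 1) without single arrays. Pgls turned to -0.0016 with wild-type 1 and 2 averaged, and gave -0.24 (without IL15ko 1) to 0.30 (IL15ko 2) without single arrays. Pfkfb3 turned to -0.51 with the mean of a gene's probes, and Slc16a1 gave -0.10 (without IL15ko 2) to 0.84 (IL15ko 1) without single arrays. Dim genes such as Hk2, Eno2 and Slc16a1 are limited by signal over background.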

Other observations

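The tricarboxylic acid cycle, which takes over where glycolysis ends, was close to the background. All 18 of its genes were tested, 0 were called by limma in either direction, 2 were higher and 0 lower at an unadjusted p under 0.05, and the median log2 difference was 0.11. The largest support was for Sdhb, a subunit of succinate dehydrogenase, with levels of 2.40, 2.39 and 2.41 in wild-type and of 2.84 and 2.89 in IL15ko (0.46 ± 0.12, adjusted p = 0.0802), and for Idh3a, of isocitrate dehydrogenase (0.45 ± 0.14, adjusted p = 0.118). Suclg2, of succinyl-CoA synthetase, had a difference of 0.55 ± 0.25 on the log2 scale (adjusted p = 0.227). Groups did not overlap in 3 genes higher and 2 lower, against 25.1% and 22.1% of all genes tested. The 2 lower were other subunits of succinate dehydrogenase, Sdhc (-0.49 ± 0.23, adjusted p = 0.238) and Sdha (-0.17 ± 0.12, adjusted p = 0.409).

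Other hypoxia-response genes went both ways. Of 16 genes, 11 were tested, 1 was called higher and 0 lower (2 lower at an unadjusted p under 0.05, Bnip3 and P4ha1), and the median was -0.06. The called gene was Car9, carbonic anhydrase 9, which was dim and above background on 3 of 5 arrays (log2 difference 1.01 ± 0.18, adjusted p = 0.0355) and was called in 3 of 17 alternatives. Ero1a, an oxidase of the endoplasmic reticulum, had one of 0.96 ± 0.21 (adjusted p = 0.0604), Ankrd37 one of 0.52 ± 0.13 (adjusted p = 0.0742) and Bnip3, a mitophagy receptor gene, one of -0.56 ± 0.15 (adjusted p = 0.0916). Of 6 gluconeogenic genes, 4 were tested and 0 called by limma. At an unadjusted p under 0.05, G6pc was higher and Pck2 lower, both dim, and Fbp1 and Fbp2 were above background on no array.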
